A study of Rattus norvegicus with 24 samples.

Results

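Stress in adolescence was compared with handling in the dorsolateral striatum (DLS) of adult male rats whose mothers had been given lipopolysaccharide (LPS). The 6 libraries were taken by the labels, 3 from stressed and 3 from unstressed LPS offspring, out of 24 in the series. All rats were male Sprague-Dawley. LPS, a bacterial cell-wall lipid that sets off innate immune responses, was injected into the pregnant dam on gestational days 15 and 16, so both groups carried the prenatal exposure and differed in what followed. The stressed group met unpredictable stress in adolescence and the unstressed group was handled. Rats were killed on postnatal day 90, and the DLS was dissected with needles from coronal slices as bulk tissue. The series also holds saline offspring with and without stress, and the nucleus accumbens (NAc) of all 4 kinds of rat, at 3 libraries each. The labels do not say which libraries came from separate litters, so p-values measure only the spread between these samples.

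The DLS serves learned and habitual action. Nearly all of its neurons are GABAergic spiny projection neurons, which form a direct pathway that carries the D1 dopamine receptor, dynorphin and substance P, and an indirect pathway that carries the D2 receptor, the adenosine receptor Adora2a and enkephalin. LPS is sensed by Toll-like receptor 4 with its co-receptor CD14 and activates NF-kB, which drives cytokine and antigen-presentation genes. Stress raises glucocorticoids, whose receptor switches on genes such as Fkbp5, Sgk1 and Tsc22d3, and a second stressor later in life is often studied for its meeting with early immune activation.

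The deposited values are digits of FPKM, a fragment count scaled by gene length and library size, with the decimal point lost, so each gene was read as log2 differences between libraries and never as a level. Of 17303 genes, 12091 were listed above 1 in all 12 DLS libraries, and 9275 of them could be placed because their libraries lay within a 3.16-fold range. The other 2816 could not be placed and are not tested. The steps between low values gave the relative depth of the libraries, since a value rises by a fixed step with each whole fragment. Set to 1 in LPS unstressed replicate 1, relative depth was 1.151 and 1.463 in the other unstressed LPS libraries and 1.051, 0.921 and 1.383 in the stressed ones. Whole fragment numbers were recovered for 7973 of the 9275 genes (86%), with a median over genes of 434.6 fragments per library, and they are given below for the genes that matter. Projection neuron markers were present as the labelled tissue requires: none of the 19 listed general markers, 9 direct-pathway and 10 indirect-pathway markers found in the table was at the listed floor of 1.

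No gene passed the test between stressed and unstressed LPS offspring. With limma and Benjamini-Hochberg adjustment, 0 of 9275 genes (0%) had an adjusted p under 0.05, and the smallest adjusted p was 1.00. Without adjustment, 122 genes (1.32%) had a p under 0.05, 79 of them higher (0.852%) and 43 lower (0.464%) in the stressed group, against 463.75 that chance alone gives. Without stressed replicate 1 the split was 45 higher and 47 lower. The 3 stressed libraries lay entirely above the 3 unstressed ones for 131 genes (1.41%) and entirely below them for 128 (1.38%). Differences were small: the median size was 0.10 and the 95th percentile 0.35 on the log2 scale, with a median standard error (SE) of 0.19. The 95% confidence interval of 8826 genes (95.2%) lay within a 2-fold change in either direction, and that of 5543 (59.8%) within a 1.5-fold change. Genes spanning more than 3.16-fold over the DLS libraries were not tested. These sizes and intervals were thus limited in advance and say nothing of the 2816 genes left out. Everything named below is therefore a description of values, and no gene is called higher or lower by an adjusted test.

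**Figure D1:**
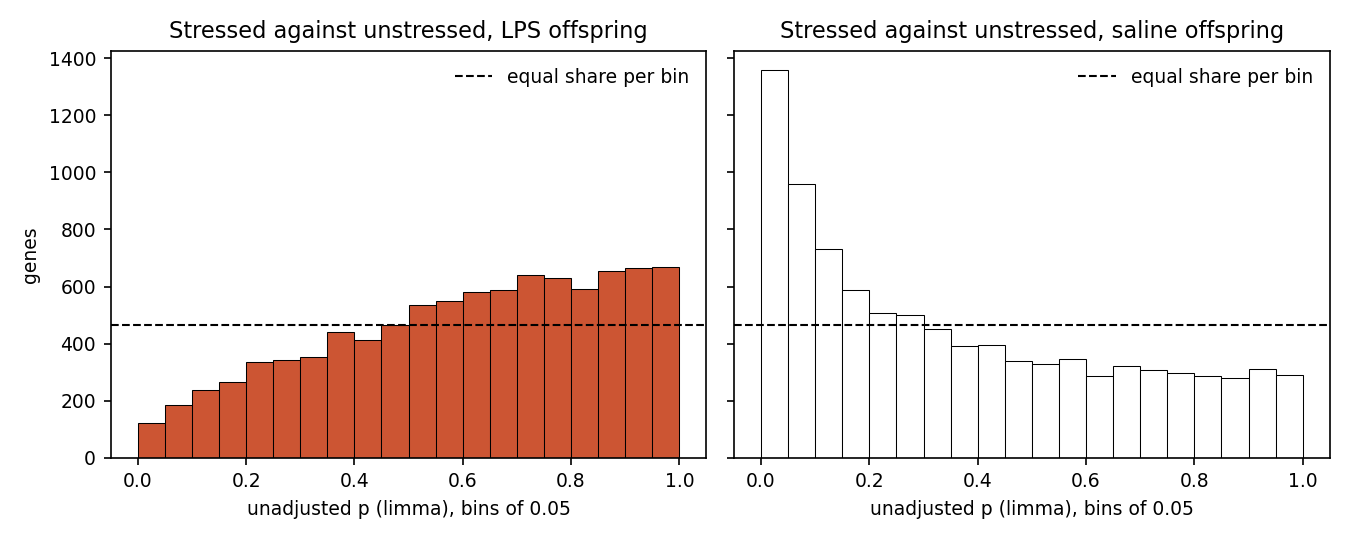
Number of genes (y axis) by unadjusted limma p (x axis, bins of 0.05) for stressed against unstressed rats among LPS offspring (left) and saline offspring (right), with a dashed line at an equal share per bin. The lowest bin holds 122 genes in LPS offspring, the smallest of the 20 bins, and 1358 in saline offspring.

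The spread within each LPS group was dominated by a contrast that cut across stress. The first principal component of the 6 libraries held 57.5% of the variance and placed replicate 3 of the unstressed group at 27.8 and replicate 3 of the stressed group at 29.1. The other 4 libraries lay between -23.4 and -3.9. Across genes the deviations of both replicate 3 libraries correlated with r = 0.59, while either one correlated with the other 4 libraries at -0.18 to -0.64. They were also the deepest of the 6 libraries (relative depth 1.463 and 1.383 against 0.921 to 1.151). Their ribosomal protein index, the mean log2 value of 57 tested genes for cytosolic ribosomal proteins, was -0.55 and -0.50, against 0.17 to 0.46 in the other 4. With that index as covariate, 340 genes had an unadjusted limma p under 0.05 (175 higher and 165 lower) and 0 passed the adjusted threshold. Beyond this fit, the part of depth or of RNA composition in the stress comparison was not tested. Without both libraries the count at an unadjusted p under 0.05 was 451 genes and again 0 passed the adjusted threshold.

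Among the genes with the smallest p, the higher ones were led by N5, Magix, Gprc5c and Galnt3. N5 (chr4:57272127-57387292 as the deposited table lists it, build not given in the sources used here) shares its locus with Ube2h, a ubiquitin-conjugating enzyme gene, so its fragments may belong to either. Relative to the unstressed mean, N5 stood at 0.26, -0.20 and -0.06 in the unstressed libraries and at 0.78, 1.12 and 0.67 in the stressed ones, which do not overlap. The difference was 0.86 ± 0.16 (SE). It rested on 6, 5 and 7 fragments in the unstressed libraries and 9, 10 and 11 in the stressed ones, so counting error is a large part of each value. Galnt3, an enzyme that starts O-linked glycosylation, differed by 0.86 ± 0.22, from 6, 5 and 7 fragments against 9, 8 and 14. Of the 24 leading genes, 8 had a mean of under 20 fragments per library, a class that made up 1.68% of the genes with recovered fragments.

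Magix, an X-linked gene for a protein with a PDZ domain (chrX:16460416-16467277), had the largest difference among the higher genes. It stood at -0.23, 0.35 and -0.12 in the unstressed libraries and at 1.29, 1.41 and 0.67 in the stressed ones, from 7, 12 and 11 fragments against 21, 20 and 18. The groups did not overlap and the difference was 1.12 ± 0.22. In saline offspring the same gene differed by -0.19 ± 0.22, and the difference between both stress contrasts was 1.31 ± 0.32, with a limma adjusted p of 0.83 after Benjamini-Hochberg adjustment.

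More fragments lay behind Slc25a18, Med8 and Afmid. Slc25a18, a mitochondrial glutamate carrier, stood at 0.09, -0.16 and 0.08 without stress and at 1.39, 0.42 and 0.74 with it, from 251, 243 and 365 fragments against 653, 292 and 547. The difference was 0.85 ± 0.23, and stressed replicate 1 held the highest value. Med8, a subunit of the Mediator complex that links transcription factors to RNA polymerase II, differed by 0.51 ± 0.14, with 71 to 108 fragments in unstressed and 90 to 146 in stressed libraries. Afmid, the formamidase of the kynurenine pathway of tryptophan breakdown, differed by 0.39 ± 0.13, with 116 to 157 fragments against 127 to 205. The remaining higher genes were Gprc5c, an orphan receptor (0.78), Zap70, a kinase of T-cell receptor signalling (0.88), Anks4b, a scaffold protein whose listed locus overlaps 10 other genes (0.73), Mmp11, a matrix metalloproteinase (0.83), RT1-CE4 (0.69) and Ttc23 (0.48). All but Mmp11 were free of overlap between the groups, as were 1.41% of all genes in that direction. Choice by smallest p favours such genes, so this adds no support. Gprc5c, Zap70 and Anks4b had means of only 18.2, 12.4 and 15.3 fragments per DLS library. Of the 12 higher genes, only Magix and Zap70 (-0.18) had a negative stress difference in saline offspring. There N5 differed by 0.39, Gprc5c by 0.50 and Anks4b by 0.50.

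RT1-CE4 and RT1-CE5 are rat class I genes of the major histocompatibility complex, which present peptides to CD8 T cells. RT1-CE4 stood at -0.42, 0.20 and 0.22 without stress and 0.54, 0.80 and 0.72 with it, on 21, 37 and 48 fragments against 43, 45 and 64. RT1-CE5 stood at -0.23, 0.05 and 0.18 against 0.90, 0.78 and 0.14, read as 264, 368 and 512 fragments against 608, 488 and 472. These RT1-CE5 numbers share a common factor, so its true fragment numbers may be several times smaller. The differences were 0.69 ± 0.21 and 0.61 ± 0.21, and the groups overlapped for RT1-CE5. The deposited table gives both genes the same locus on chromosome 20, each overlapping 19 listed genes of which many are further RT1-CE copies, so fragments may be divided among copies. Their promoters are printed from RefSeq (GRCr8, from 250 bases before to 50 after the gene start, chr20:3509107-3509406 and chr20:3484041-3484340, both on the minus strand). Transcripts were not compared, so likeness of the promoters does not show how fragments were divided. Matches to a kappa B decamer (GGG, any pair of bases, TT, any base, CC) and to CCAAT on either strand are in capitals:
RT1-CE4: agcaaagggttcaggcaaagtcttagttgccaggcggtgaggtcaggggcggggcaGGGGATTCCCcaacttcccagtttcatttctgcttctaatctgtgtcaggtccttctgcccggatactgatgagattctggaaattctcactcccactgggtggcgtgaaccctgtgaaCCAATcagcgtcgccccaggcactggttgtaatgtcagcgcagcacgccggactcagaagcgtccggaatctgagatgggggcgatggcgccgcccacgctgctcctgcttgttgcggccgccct
RT1-CE5: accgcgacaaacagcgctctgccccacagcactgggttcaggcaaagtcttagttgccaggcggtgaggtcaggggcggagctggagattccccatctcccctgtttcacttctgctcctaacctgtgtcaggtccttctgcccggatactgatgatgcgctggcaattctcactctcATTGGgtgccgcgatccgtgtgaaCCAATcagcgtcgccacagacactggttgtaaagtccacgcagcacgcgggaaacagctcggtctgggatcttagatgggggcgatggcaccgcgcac
Of 273 aligned bases, 234 (85.7%) were identical. The decamer matched once in RT1-CE4, at bases 57 to 66, and had no match in the window of RT1-CE5. It occurs in 5% of 33469 promoters of this length and CCAAT in 37.5%. An interferon response core (GAAA, any pair of bases, GAAA, found in 3.92%) matched neither window.

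The lower genes had smaller differences and, in most cases, more fragments. Map2k6, the kinase that activates p38, stood at 0.03, 0.07 and -0.10 without stress and at -0.27, -0.62 and -0.41 with it, from 353, 419 and 475 fragments against 303, 208 and 361. The difference was -0.43 ± 0.15 and the groups did not overlap. Exoc6, a subunit of the exocyst that tethers vesicles to the plasma membrane, differed by -0.42 ± 0.15, with 380 to 656 fragments against 259 to 456. Fgf9, a growth factor made by neurons, differed by -0.47 ± 0.15, with 82 to 125 fragments against 61 to 96. Cpne8, a calcium-dependent membrane-binding copine, differed by -0.52 ± 0.17. In both genes each stressed library lay below each unstressed one. The same held for Snx7, a sorting nexin (-0.40), Nudt6, a Nudix hydrolase (-0.71), Gcat, an enzyme of threonine breakdown whose locus overlaps Ankrd54 and Galr3 (-0.55), Mtif3, a mitochondrial translation initiation factor whose locus overlaps Gtf3a (-0.39), and Dcp2, the mRNA decapping enzyme, which overlaps Mcc and Myot (-0.57). Dcp2 rested on only 12, 14 and 17 fragments against 9, 7 and 11. Choice by smallest p favours separate groups, which 1.38% of all genes showed in that direction. Of the 12 lower genes, only Gcat (0.14), Mtif3 (0.14) and Pnlip, described next, had a positive stress difference in saline offspring. There Exoc6 differed by -0.33 and Nudt6 by -0.23.

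Pnlip, pancreatic lipase, differed by -0.58 ± 0.20 in LPS and 0.66 ± 0.20 in saline offspring, a difference of -1.23 ± 0.29 with a limma adjusted p of 0.83 after Benjamini-Hochberg adjustment, and its LPS groups overlapped. Capsl, a calcyphosine-like gene, was read at -1.16 ± 0.31, but its fragments came out whole at smaller numbers when 1 or 2 libraries were moved by a factor of 10. Its decimal place, and so its direction, is uncertain. The same doubt held for 35 of all tested genes.

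**Figure D2:**
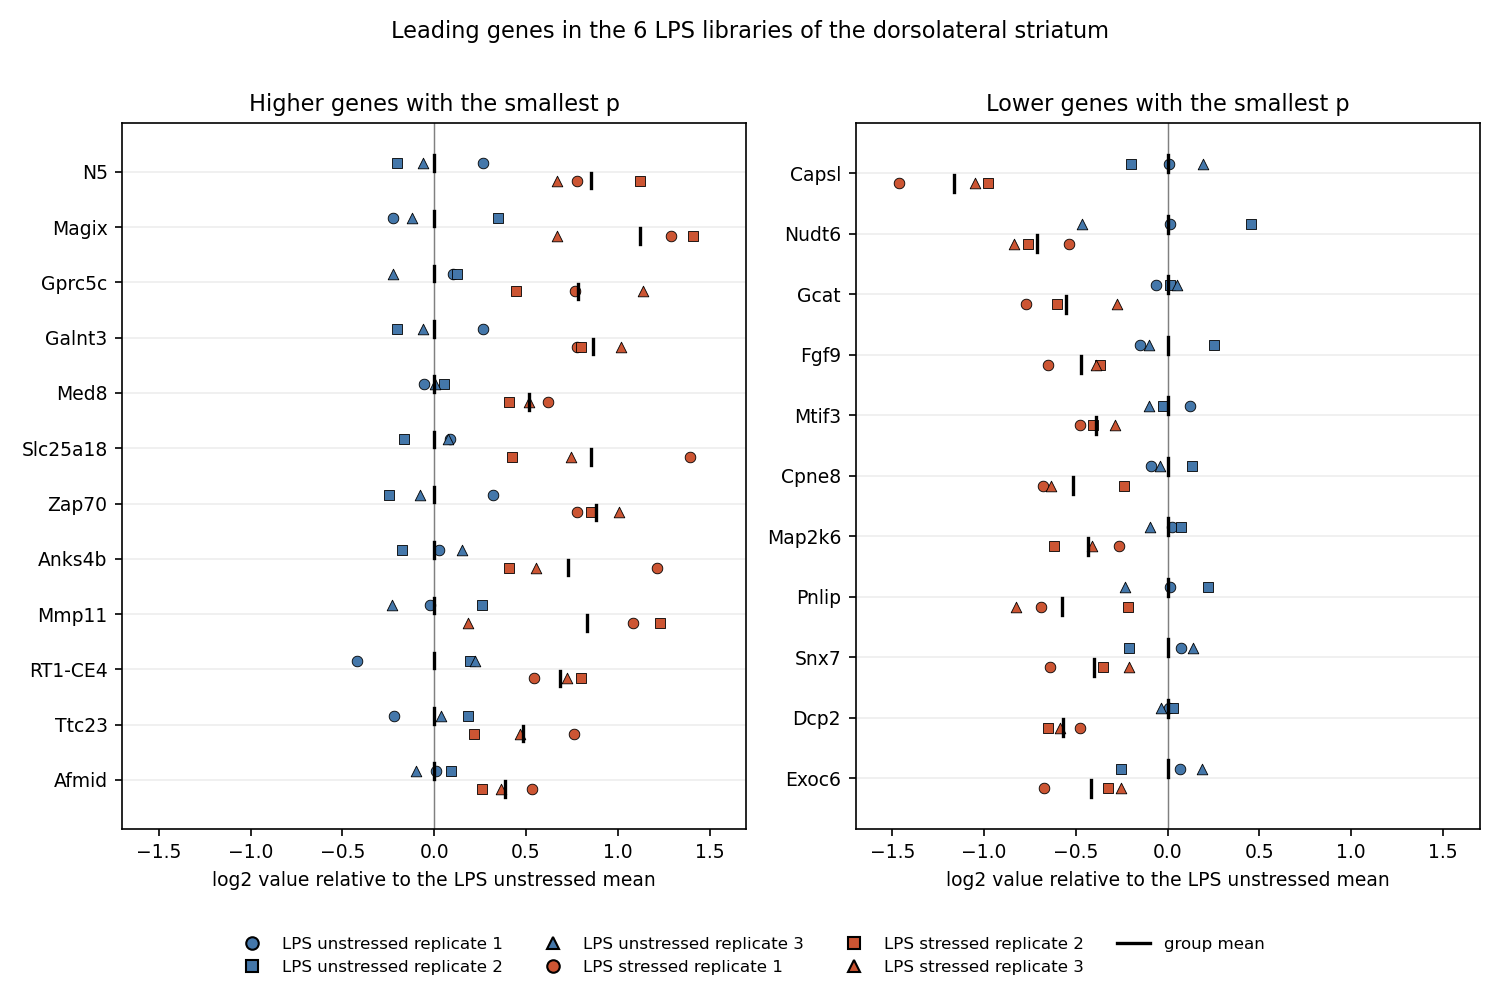
Log2 values (x axis) relative to the LPS unstressed mean for leading higher and lower genes by smallest p (y axis), with each of the 3 unstressed (blue) and 3 stressed (red) LPS libraries as a point and group means as bars. Magix separates the groups by 1.12 and N5 by 0.86, while Mmp11 and Pnlip have overlapping groups.

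Markers of leptomeninges and fibroblasts, the cells of the brain's covering and vessel sheaths, had higher values in stressed rats throughout the list. All 9 tested members had a positive difference, with a median of 0.39, against 45.6% of all genes and a median of -0.01. None passed the adjusted threshold, and 3 had an unadjusted p under 0.05, where 0.852% of all genes did in that direction. A further 6 members, among them the collagen gene Col1a1, could not be placed, and 2, Col1a2 and Ogn, were at the listed floor in at least 1 library. Islr, an immunoglobulin-domain protein of mesenchymal cells, stood at 0.07, -0.19 and 0.12 without stress and 0.39, 0.63 and 0.49 with it, on 45, 43 and 68 fragments against 59, 61 and 83. It was the only member whose groups did not overlap, beside 1.41% of all genes in that direction, and its difference was 0.50 ± 0.18. Lum and Dcn, small proteoglycans that bind collagen fibrils, differed by 0.44 ± 0.20 and 0.39 ± 0.24. Igf2, a growth factor made by the meninges, differed by 0.78 ± 0.34, and its locus overlaps Mir483. Igfbp2, which binds that factor, differed by 0.51 ± 0.30, Pcolce, an enhancer of procollagen processing, by 0.36, and Col3a1, a fibrillar collagen, by 0.23.

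The mean of the 9 members was -0.17, 0.31 and -0.14 in the unstressed libraries and 0.45, 0.43 and 0.38 in the stressed ones. Unstressed replicate 2 thus lay closer to the stressed group than to its own. The list's median ranged from 0.25 to 0.54 when any 1 library was left out and was 0.37 without the 2 libraries that stood apart. In saline offspring the median was 0.35 with 6 of 9 higher. In bulk tissue, more cells of a type and more RNA per cell cannot be told apart, and how much of the covering each dissection held was not measured.

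Endothelial and mural markers had a positive difference in 12 of 16 tested members, median 0.14. Tagln, an actin-binding protein of smooth muscle, stood at -0.45, 0.39 and 0.07 against 0.79, 0.19 and 0.97, on 133, 274 and 279 fragments against 332, 192 and 494. The groups overlapped. Its difference was 0.65 ± 0.25, against -0.71 in saline offspring, and the difference between the contrasts was 1.37 with an unadjusted limma p of 0.0024 and an adjusted p of 0.83. Kcnj8, a potassium channel subunit of pericytes, ran the other way at -0.43 ± 0.25, with no overlap between the groups. The list's median was -0.05 without stressed replicate 1.

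Complement and antigen-presentation genes had higher values in 11 of 15 tested members, with a median of 0.22. RT1-CE5 was the only one with an unadjusted p under 0.05, beside 0.852% of all genes in that direction. C1r, a protease of the complement cascade, differed by 0.34 ± 0.21, and the peptide transporter Tap1 by 0.30, where stressed replicate 1 stood at 1.02 and the other 2 at -0.10 and -0.01. The complement trigger C1q did not share this direction, with C1qa at -0.05, C1qb at -0.01 and C1qc at -0.29. Interferon-response genes had higher values in 11 of 14 members, median 0.21. Irf1, a transcription factor induced by interferon gamma, stood at 0.03, -0.02 and -0.02 without stress and at 0.48, 0.52 and 0.10 with it, on 80, 89 and 113 fragments against 115, 103 and 116. Its groups did not overlap and it differed by 0.37 ± 0.16. Without stressed replicate 1 the interferon median was 0.02 and the complement median 0.08, and without unstressed replicate 1 the complement median was 0.09.

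Genes of Toll-like receptor 4, NF-kB and cytokine signalling had higher values in 17 of 22 tested members, with a median of 0.13, and 0 at an unadjusted p under 0.05 by limma. The median was 0.06 without stressed replicate 1 or without stressed replicate 3, and 0.07 without unstressed replicate 1. Tlr4 itself differed by 0.14 ± 0.32 on 11 to 26 fragments per library. Cd14, its co-receptor, stood at 0.27, -0.29 and 0.02 against 1.03, 0.81 and 0.10, a difference of 0.65 ± 0.30 on 7 to 16 fragments. Tnfrsf1a, a receptor for tumour necrosis factor, differed by 0.42 ± 0.19, with unstressed replicate 3 among the stressed values. Rela, the activating subunit of NF-kB, showed a small separation, at -0.03, -0.08 and 0.11 against 0.15, 0.22 and 0.21, from 319 to 513 and 349 to 519 fragments. Its difference was 0.19 ± 0.12. Tnf could not be placed and Il1b was at the listed floor in at least 1 library, so neither cytokine was tested.

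Microglial and astrocyte markers showed no shared direction. Of 18 tested microglial genes 9 were higher and 9 lower, with a median of 0.00. Fcgr3a, an immunoglobulin receptor, was the only one with separate groups, beside 1.41% of all genes in that direction, at -0.09, 0.02 and 0.07 against 0.25, 0.27 and 0.30 on 33 to 60 fragments. Of 24 astrocyte genes 12 were higher, median 0.00. Gfap, the intermediate filament that marks reactive astrocytes, differed by 0.12 ± 0.26, and Agt, the angiotensin precursor, by -0.57 ± 0.34.

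Oligodendrocyte and myelin genes had lower values in 26 of 29 tested members, with a median of -0.16, where 54.4% of all genes were lower. None had an unadjusted p under 0.05. The groups were separate for 3 of them, against 1.38% of all genes in that direction. Pllp, a membrane protein of myelin, stood at -0.09, 0.12 and -0.03 without stress and at -0.17, -0.12 and -0.34 with it, from 1572 to 2394 and 1411 to 1822 fragments, a difference of -0.21 ± 0.13. Ndrg1, a cytoplasmic protein needed for myelin upkeep, differed by -0.17 ± 0.13, with unstressed values of -0.01, 0.01 and 0.00 and stressed values of -0.16, -0.20 and -0.15. Gjb1, the connexin of myelin gap junctions, differed by -0.37 ± 0.20, and stressed replicate 1 at -0.88 set most of that against -0.12 and -0.10. The structural proteins Mag, Mog and Mbp differed by -0.33, -0.15 and -0.22. Precursor markers ran the other way, with 7 of 9 higher and a median of 0.07, but that median was -0.0016 without stressed replicate 3 and 0.02 with library weights. The myelin median was below 0 in all 24 alternatives run, from -0.23 to -0.10 when 1 library was left out, and was smallest with library weights at -0.04, with 8 of 29 higher.

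Projection neuron genes mostly had lower values, with overlapping groups. Markers common to all projection neurons were lower in 12 of 15 members, median -0.20, and indirect-pathway markers in 7 of 8, median -0.19. Direct-pathway markers were lower in 6 of 8, median -0.08. Drd2, the receptor of the indirect pathway, stood at -0.37, -0.08 and 0.45 without stress and at -0.84, -0.02 and 0.26 with it, so that only stressed replicate 1 lay below all unstressed libraries. Ppp1r1b, which encodes DARPP-32, the phosphatase inhibitor that integrates dopamine signals, differed by -0.20 ± 0.21. Drd2 differed by -0.20 ± 0.30, Adora2a by -0.13 ± 0.23 and Penk by -0.11 ± 0.31. In the direct pathway Drd1 differed by -0.08 ± 0.23, Tac1 by -0.20 ± 0.31 and Pdyn by 0.12 ± 0.27. No marker of these 3 lists had an unadjusted p under 0.05. Without stressed replicate 1 the medians were -0.07, -0.06 and 0.03, and with library weights they turned to 0.08, 0.19 and 0.22.

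In transmitter systems, 17 of 19 dopamine signalling genes (median -0.17) and 9 of 11 GABA genes (median -0.21) had lower values. The dopamine median was -0.05 without stressed replicate 1, and with library weights it turned to 0.02, with 10 of 19 higher. Gad1, which makes GABA from glutamate, stood at -0.19, 0.20 and 0.00 against -0.37, -0.17 and -0.55, a difference of -0.36 ± 0.16. Unstressed replicate 1 lay within the stressed range. Gad2, the other synthesis gene, differed by -0.46 ± 0.35, with unstressed replicate 3 at 0.91. The GABA median was -0.03 without that library and -0.07 without stressed replicate 1. Maob, a monoamine oxidase of glia, ran against the dopamine list at 0.49 ± 0.22, with 1698, 862 and 1736 fragments in stressed and 735, 923 and 1688 in unstressed libraries. The 7 tested serotonin, noradrenaline and acetylcholine genes had a median of -0.19. Their mean was lower in each stressed library (-0.28, -0.21 and -0.09) than in each unstressed one (-0.05, -0.07 and 0.12). For any 1 list, random order separates 3 libraries from 3 in either direction with a chance of 0.1. Htr3a, an ion-channel receptor for serotonin, differed by -0.42 ± 0.20 and Ache, acetylcholinesterase, by -0.34 ± 0.21.

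The activity and stress-hormone genes that could be tested lay near the middle of all genes in the reported fit. Immediate early genes were higher in 10 of 19 tested members, median 0.02, and with library weights in 14 of 19, median 0.11. A further 10, among them the strongly inducible Arc, Egr1 and Npas4, could not be placed, and 1 was at the listed floor. Egr2, a transcription factor, stood at -0.21, -0.36 and 0.58 against 0.39, 1.28 and 0.45, on 198, 205 and 501 fragments against 315, 515 and 434, and differed by 0.71 ± 0.28 with unstressed replicate 3 inside the stressed range. Fos differed by 0.29 ± 0.26, Fosb by 0.43 ± 0.28 and Nr4a1 by 0.12 ± 0.26. Genes induced by glucocorticoids were higher in 9 of 15 tested members, median 0.08, and 8 more could not be placed. That median was -0.03 without LPS unstressed replicate 1. It was 0.12 with library weights, with 13 of 15 higher, and 0.19 with an arc of 0.7 decades, with 14 of 20 higher. Fkbp5, a chaperone that dampens the receptor, differed by -0.05 ± 0.18, Sgk1 by 0.28 ± 0.26 and Tsc22d3 by 0.07 ± 0.20. The receptor genes Nr3c1 (glucocorticoid) and Nr3c2 (mineralocorticoid) differed by -0.15 and -0.20. The 95% interval of Fkbp5 ran from -0.44 to 0.35.

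The medians of housekeeping complexes changed sign with the library left out. Cytosolic ribosomal genes were higher in 52 of 57 members with a median of 0.10, which became -0.21 without unstressed replicate 3 and 0.38 without stressed replicate 3. Genes of oxidative phosphorylation were lower in 46 of 62 (median -0.07, from -0.27 to 0.19 over the same omissions) and proteasome genes in 29 of 31 (median -0.08, from -0.21 to 0.09). Without both libraries that stood apart the ribosomal median was 0.09, with 49 of 61 higher, and the other medians were -0.02 each.

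**Figure D3:**
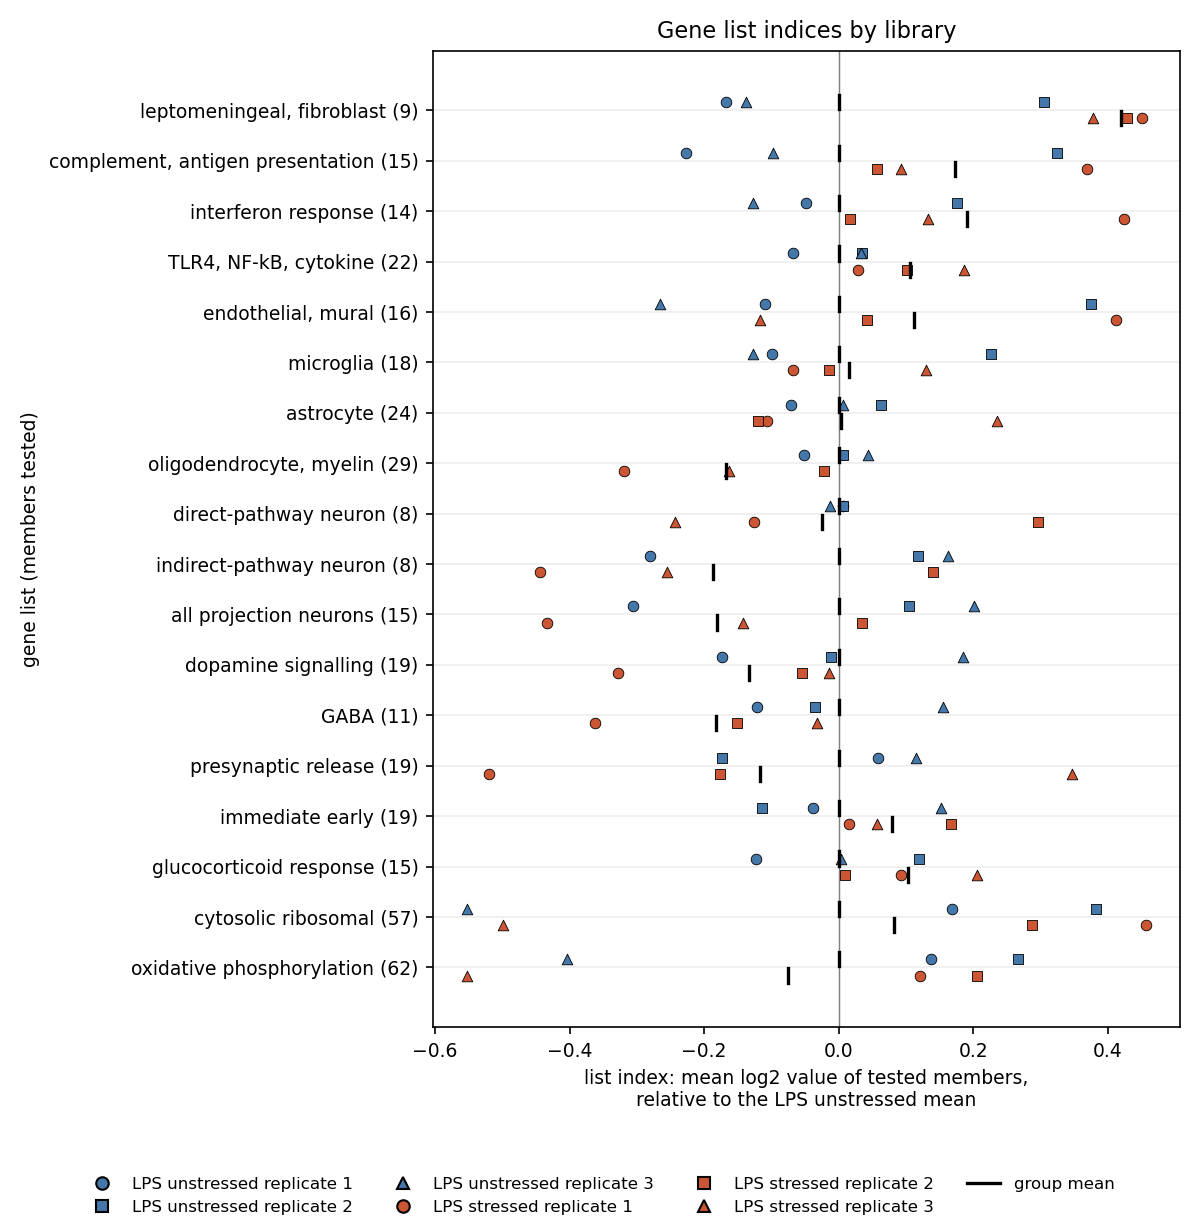
Mean log2 value of the tested members of 18 gene lists (y axis, number of members in brackets) in each LPS library (x axis, relative to the LPS unstressed mean), with unstressed libraries in blue, stressed in red and group means as bars. The leptomeningeal and fibroblast list is the only one shown whose groups do not overlap (0.38 to 0.45 against -0.17 to 0.31). The serotonin, noradrenaline and acetylcholine list, not shown, also had separate groups, with lower stressed values. For any 1 list, random order separates 3 libraries from 3 with a chance of 0.1. Both replicate 3 libraries lie at the left in the ribosomal list (-0.55 and -0.50).

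Saline offspring showed a wider spread of differences under the same stress. In the same limma fit 1358 genes (14.6%) had an unadjusted p under 0.05, 8.3% higher and 6.34% lower, and 0 passed the adjusted threshold, and groups did not overlap for 2655 genes (28.6%) against 259 (2.79%) in LPS offspring. The stressed saline libraries were shallower, with a relative depth of 0.716 to 1.409 against 1.337 to 1.684 in unstressed ones, and the part of depth in this was not tested. The difference between the contrasts was tested directly: 0 of 9275 genes passed the limma adjusted threshold, with a smallest adjusted p of 0.83, and 481 (5.19%) had an unadjusted p under 0.05, 2.35% higher and 2.84% lower in LPS than in saline offspring. So no gene was shown to respond differently by prenatal exposure. Larger separations between the contrasts by list were found for ribosomal genes (median 0.10 in LPS and 0.55 in saline), oxidative phosphorylation (-0.07 and 0.49), astrocyte (0.00 and 0.30) and microglial markers (0.00 and 0.31). In the astrocyte list 7 of 24 members had an unadjusted p under 0.05 for this difference. Among them were Apoe, a lipid carrier (-0.03 in LPS and 0.70 in saline), and Clu, a secreted chaperone (0.00 and 0.59). The complement genes C1qa (-0.05 and 0.92) and C1qb (-0.01 and 0.69) did the same. For myelin genes the medians were -0.16 and 0.13, and Pllp differed between the contrasts by -0.64 with an unadjusted limma p of 0.0040 and an adjusted p of 0.83.

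**Figure D4:**
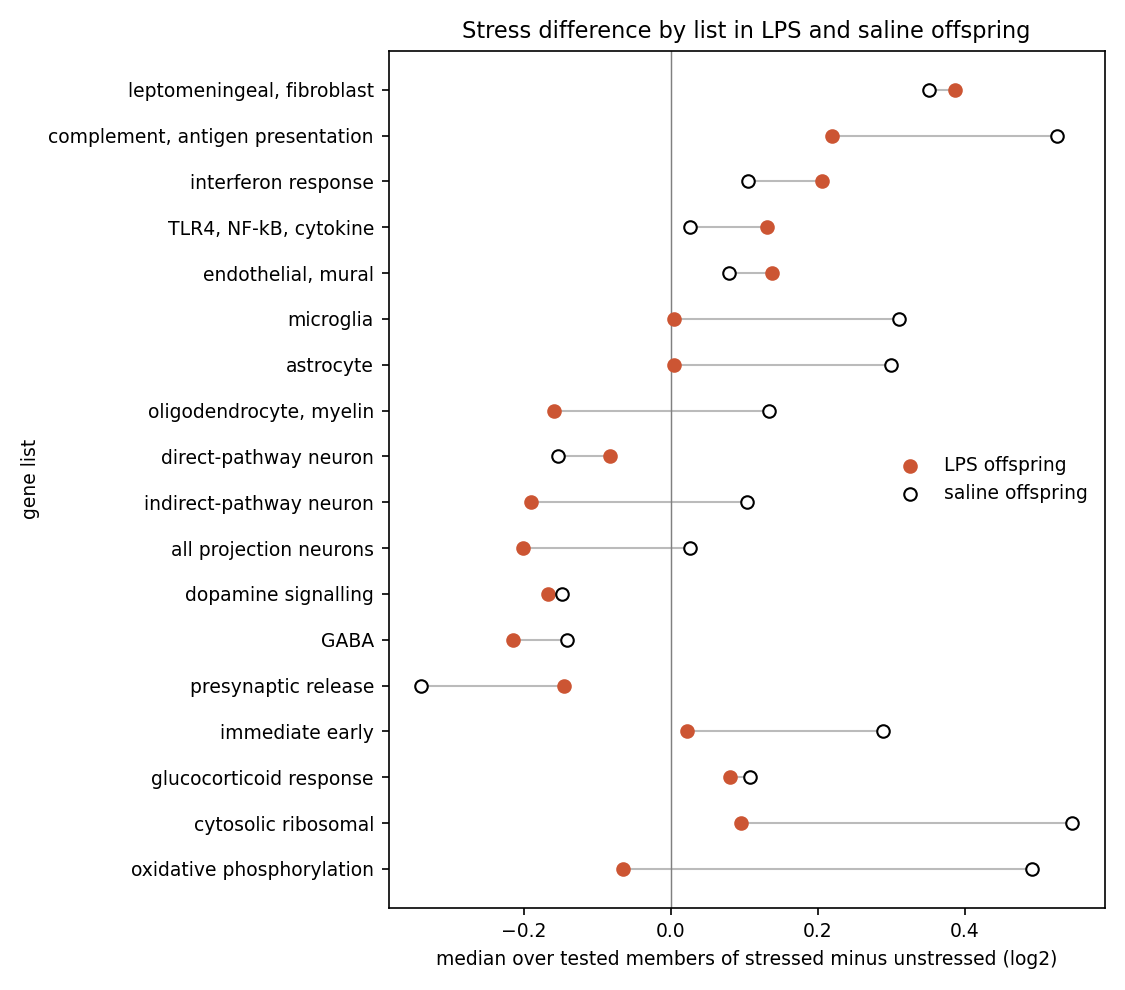
Median stress difference (x axis, log2, stressed minus unstressed) over the tested members of 18 gene lists (y axis) in LPS offspring (filled) and saline offspring (open), joined by a line. The leptomeningeal list is alike in both (0.39 and 0.35), while ribosomal (0.10 and 0.55) and oxidative phosphorylation (-0.07 and 0.49) lists lie far apart.

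The NAc of LPS offspring gave no gene whose stress difference differed from that of the DLS. In a fit of all 24 libraries, 0 of 7667 genes passed the limma adjusted threshold, with a smallest adjusted p of 1.00, and 97 (1.27%) had an unadjusted p under 0.05, 0.796% higher and 0.47% lower in DLS. For the 6 leptomeningeal members placed in both regions, the median was 0.36 in DLS and -0.04 in NAc. Myelin genes had medians of -0.16 and -0.02 over 25 members, and shared projection neuron markers -0.15 and -0.15 over 10. RT1-CE4 differed by -0.19 ± 0.20 in NAc and Med8 by -0.16 ± 0.13, each opposite in sign to the DLS value. Fgf9 differed by -0.35 ± 0.17 in NAc and Htr3a by -0.43 ± 0.20, each with the sign of the DLS value. Over all 7667 genes, 47.6% had the same sign in both regions.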

How the data were processed

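RNA from bulk DLS and NAc was extracted on RNeasy columns and made into poly(A)-selected, strand-specific libraries, per the labels' protocols. STAR 2.6.25.17 and Cuffdiff 2.2.1 are named in the submitters' processing notes. What each tool did, the genome build, the annotation and the strand setting were not given in the sources used here. The authors deposited 1 table headed as FPKM, but its values are digit strings without a decimal point and were treated as a score. Of 415272 values, 97026 are listed as 1 and 12 are blank.

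Each gene's digits were taken as a position on a circle with 1 turn per factor of 10, and genes within an arc of 0.5 decades over the 12 DLS libraries were read as log2 differences. Random digits would pass in 0.00586 of genes. A larger true difference is left out or can appear with the opposite sign. The most frequent ratio of low values between libraries gave relative depth, which includes the authors' normalisation. The smallest whole numbers, up to 3000, that reproduced all 12 values within 0.05 fragments, or up to 0.12 at high numbers, gave the fragments. They sum to between 4098780 and 6489279 per LPS library over 7973 genes, which is not the full depth.

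limma 3.58.1 in R 4.3.3 was fitted to 4 DLS group means with 8 residual degrees of freedom, two-sided, with Benjamini-Hochberg adjustment over 9275 genes and a threshold of 0.05. The comparison with NAc used 8 group means over 24 libraries and 7667 genes, taking regions as independent libraries. Values per library are relative to the mean of the unstressed LPS group, with gene differences given as the log2 difference ± SE. Named genes are the 12 higher and 12 lower with the smallest p, the 2 members with the smallest p of each list, and a set of striatal, stress and glial genes, a few of which are not reported here. Other list members and Apoe, Clu, C1qa, C1qb and C1qc were named after their values were seen. Members, lists and tests were chosen with earlier results of these data known. Some lists share genes, and lists are described by counts and medians. Lists with under 5 tested members (ependymal, cortical and blood markers) were counted only. The steps were tested on simulated digits. Alternatives covered the arc, the libraries in the fit, re-centring, library weights, robust fitting, a ribosomal covariate and each library left out. Leaving out 2 libraries together, dropping genes with under 20 fragments and limma-voom on the fragments were chosen after seeing the data.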

Additional observations from a re-analysis of the deposited data

How the results depend on the processing

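No gene passed the adjusted threshold under any of 24 alternatives except library weights, which called 2 genes, Magix and Mmp11, and raised the count at an unadjusted p under 0.05 from 122 to 1093. The weights were lowest in replicate 3 of the stressed (0.233) and unstressed (0.337) LPS groups, and their estimation stopped before it converged. That count was 340 with the ribosomal index as covariate and 451 without both LPS replicates 3, and ran from 92 (without LPS stressed replicate 1) to 687 (without LPS stressed replicate 3) when 1 library was left out. The split into higher and lower was 492 and 601 with library weights, 223 and 228 without both LPS replicates 3, 175 and 165 with the covariate, and 313 and 374 without LPS stressed replicate 3. The count was 217 without LPS unstressed replicate 2, 210 without LPS unstressed replicate 3 and 220 without LPS stressed replicate 2. It was 113 without genes of under 20 fragments and 91 with limma-voom on the 7973 genes with recovered fragments. The differences from saline offspring and from NAc gave 0 adjusted calls in each alternative that could be fitted. The 24 leading genes kept their sign wherever they were tested. They had been chosen by smallest p in these same libraries, so this outcome was nearly fixed in advance and adds no support. Of 34 list medians 24 changed sign in some alternative, and the 10 that did not were leptomeningeal, complement, interferon, Toll-like receptor 4, myelin, GABA, serotonin, cholesterol, heat shock and zinc genes. The causes were not tested. No paired analysis was possible because the labels number all libraries in 1 series, and the replicate numbers used here follow listing order and pair nothing. With 3 libraries a group, the median 95% interval reached 0.42 on the log2 scale to either side, and smaller differences were not detectable in most genes. That unadjusted width is not the limit of the adjusted test, which larger differences also failed to pass, such as 0.86 for N5 and 1.12 for Magix.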

Other observations

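Outside the comparisons, 9 of 17303 genes were listed as 1 in all 3 unstressed LPS libraries and above 1 in all 3 stressed ones. They were Abra, Arhgap8, Defb36, Il12rb2, Lax1, Ns5atp4, Prss45, Ptgir and Uts2. Of the 17303 genes, 12091 were above 1 in all 12 DLS libraries and could show neither pattern. A further 11 showed the reverse: Apoc2, Catsper3, Ccdc27, Fcnb, Lgsn, Lrrc38, Mirlet7b, Phlda2, RGD1305807, Spata32 and St6galnac1. No fold is given, since a listed 1 carries no level. Among lists not described above, cholesterol synthesis genes had lower values in 18 of 20 tested members with a median of -0.10, which was -0.01 without stressed replicate 1 and -0.31 without stressed replicate 3. Presynaptic release genes had lower values in 16 of 19 with a median of -0.15, which was 0.03 without stressed replicate 1 and -0.39 without stressed replicate 3. Extracellular matrix and perineuronal net genes were higher in 11 of 17 members, median 0.09. Circadian clock genes were higher in 8 of 14 with a median of 0.01, and unfolded protein response genes in 10 of 20 with a median of -0.01. Voltage-gated channel genes were lower in 14 of 23, median -0.07, and zinc transporter and metallothionein genes in 11 of 14, median -0.11, which was -0.01 without stressed replicate 1.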
